A study of Mus musculus with 2 samples.

Results

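The genes described here make, sense and remove retinoic acid: the retinol dehydrogenase gene Rdh10, the retinal reductase gene Dhrs3, the retinal dehydrogenase gene Aldh1a2, the retinoic acid hydroxylase gene Cyp26b1 and the receptor genes Rara and Rarg. They are 6 of the 31053 genes measured, were selected on their summed UMIs per cell gate in these libraries, and all 6 were found in both. Their levels and differences in the gates are therefore given as a description, with no test. Retinoic acid is made from vitamin A in a reversible oxidation of retinol to retinal, in which Rdh10 works forward and Dhrs3 backward, followed by an irreversible oxidation of retinal by Aldh1a enzymes. Cyp26 enzymes oxidise retinoic acid and so end its action, and cells without the synthetic enzymes respond to retinoic acid made by their neighbours through nuclear receptors of the Rar family. In dendritic cells, Aldh1a2 (which encodes RALDH2) is known for producing the retinoic acid that acts on T and B cells.

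Each group had 1 library of adult mouse lung cells, prepared with 10x Genomics single-cell 3' chemistry version 3. The tamoxifen library came from tamoxifen-injected and the oil library from oil-injected mice, all labelled Gli1creERT/Hhipflo/flox. Both groups thus carry a tamoxifen-dependent Cre recombinase expressed from Gli1, a gene of Hedgehog-responsive mesenchyme, and loxP-flanked Hhip, the gene for an inhibitor of Hedgehog signalling, and tamoxifen is the difference between them in the labels. The sort took live cells positive for CD45 that an intravenous CD45 antibody had not reached, which favours immune cells outside the vessels. How many animals each library pools was not stated in the labels.

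The tamoxifen library held 83730550 UMIs (unique molecular identifiers, which count captured RNA molecules) in 12980 barcodes, and the oil library 57704412 UMIs in 10342 barcodes. Barcodes with at least 300 genes and under 10% mitochondrial UMIs numbered 10138 with tamoxifen and 6794 with oil, and their median depths were 6431 and 6361 UMIs. Hhip had 29 UMIs in kept tamoxifen barcodes (0.363 CPM) and 40 in kept oil barcodes (0.753 CPM, log2 ratio -1.05, -1.79 to -0.33), of which 23 and 24 lay in the fibroblast gate (log2 ratio 0.19, -0.70 to 1.08), and whether the tags lie in the deleted part is not stated, so these counts check nothing. Both libraries mixed cells of both sexes, and 41 barcode sequences occurred in both, 18 of them among kept barcodes. With 1 library per group no test is possible, and every 95% interval below covers counting error only.

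Cells were gated on UMIs of pairs of genes: endothelial cells on Cdh5 and Cldn5, fibroblasts on Dcn and Col1a2, dendritic cells on Ccr7 with Fscn1, cDC1 on Xcr1 and Clec9a, cDC2 on Mgl2 and Cd209a, alveolar macrophages on Krt79 and Plet1, C1q macrophages on C1qa and C1qb, and T cells on the Cd3 genes. The summed UMIs had to reach 1 for the cDC2 and T cell gates, 2 for the endothelial, cDC1 and alveolar macrophage gates, 3 for fibroblasts and 5 for C1q macrophages, and Ccr7 and Fscn1 needed 1 each. The gates overlap. In each one every marker on the list of that cell type was found in a larger share of gated cells than of other kept cells. Each list includes the genes that define the gate, and for those the outcome follows from the gating. The cDC2 gate does not bear its name well: 87.0% of its 1659 tamoxifen cells and 77.8% of its 2035 oil cells passed another gate too, and only 66 and 189 of its cells held a Cd209a UMI. C1q macrophage markers summed to 6172 CPM with tamoxifen and 5861 CPM with oil in the cDC2 gate, and cDC2 markers to 1198 and 1568 CPM. It is called the Mgl2/Cd209a gate below. The C1q macrophage and cDC1 gates overlap with others as well: 79.4 and 90.3% of C1q macrophages and 70.9 and 64.9% of cDC1 passed another gate. Endothelial cells and fibroblasts are not expected in a CD45 sort and were few, with 257 and 85 cells in the tamoxifen library against 281 and 99 in the oil library.

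A member was compared between libraries where both libraries together held at least 20 of its UMIs in a gate, which was so for 40 pairs of a gene and a gate. Levels are counts per 1000000 UMIs of the gate (CPM), and a 2-fold difference was the limit for a call. None of the 40 was at least 2-fold higher with tamoxifen, 10 were at least 2-fold lower, and 30 lay within 2-fold. All 10 belonged to Aldh1a2 (6 of its 7 gates) and Cyp26b1 (4 of its 4). Of these, 6 rest on cells shared with the endothelial gate, on shares of cells near those of B cells or on few cells, as given below: Cyp26b1 outside endothelial cells, and Aldh1a2 in T cells, alveolar macrophages and fibroblasts. Among all genes measured in these gates, between 1.41 and 5.85% were at least 2-fold lower. Aldh1a2 in cDC1, C1q macrophages and the Mgl2/Cd209a gate, which share cells, did not exceed its CPM in B cells beyond counting error, as given below. Oil cells of the Mgl2/Cd209a gate alone lay above oil B cells, as also given there. Rara, Rarg, Rdh10 and Dhrs3 gave log2 ratios from -0.43 to 0.83.

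**Figure D1:**
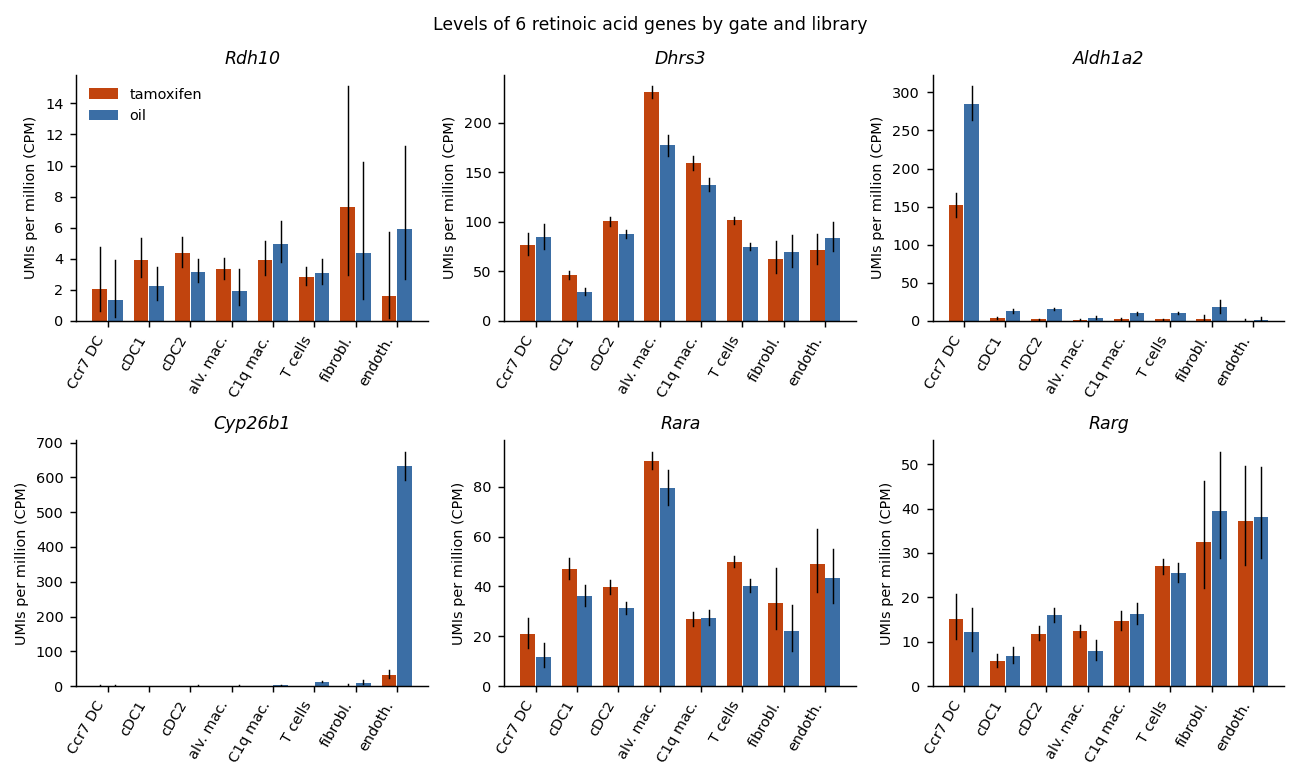
CPM (vertical axis) of each gene in 8 gates, with the tamoxifen library (red-brown bars) left of the oil library (blue bars) and lines for exact Poisson 95% intervals. Cyp26b1 stands at 33.3 CPM with tamoxifen and 633 CPM with oil in endothelial cells, and Aldh1a2 at 152 and 285 CPM in Ccr7 Fscn1 dendritic cells, while the vertical scale differs between panels and cDC2 stands for the Mgl2/Cd209a gate.

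**Figure D2:**
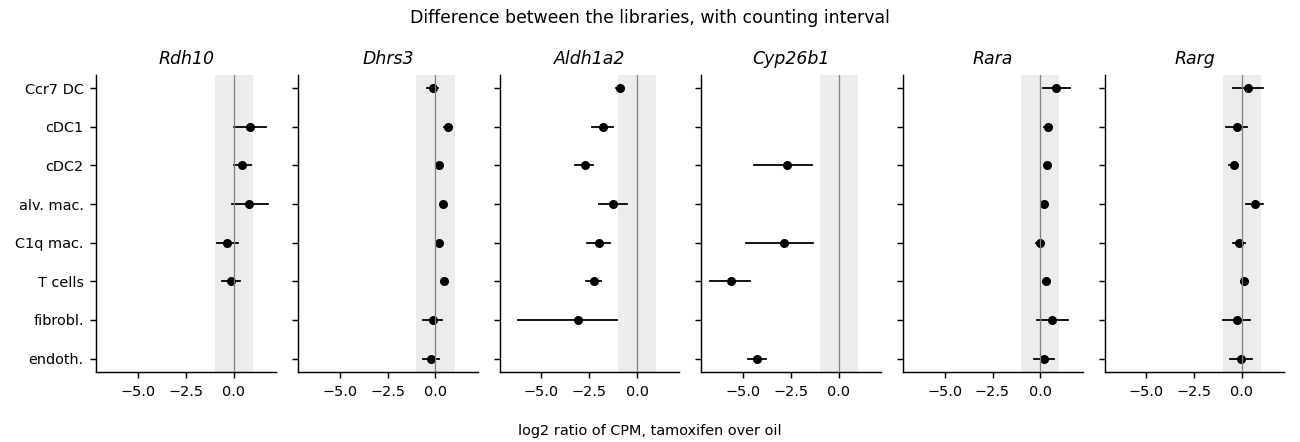
Log2 ratio of CPM, tamoxifen over oil (horizontal axis), by gate (rows) for gene and gate pairs with at least 20 UMIs, with points for the ratio, lines for the counting interval and a grey band for differences under 2-fold. The points of Cyp26b1 and all but 1 of those of Aldh1a2 lie left of the band, and the points of the other genes lie inside it.

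Sequence just before the start of the gene is shown for Aldh1a2 and Cyp26b1, the genes that differed, together with a retinoic acid response element from each of Cyp26a1 and Rarb, textbook targets of the receptors. Such elements are paired half-sites, here AGGTCA or GGGTCA, and also AGTTCA or GGTTCA, on either strand. The bases come from RefSeq promoter windows on GRCm38.p6 and are written 5' to 3' on the strand of the gene. The Aldh1a2 and Cyp26b1 windows are cut back where GENCODE annotates an exon, and the Rarb element lies in bases that such a cut would remove. Capitals mark half-sites, and in the promoters also TATAAA and CCAAT on either strand.
Aldh1a2, chr9:71215539-71215788, plus strand: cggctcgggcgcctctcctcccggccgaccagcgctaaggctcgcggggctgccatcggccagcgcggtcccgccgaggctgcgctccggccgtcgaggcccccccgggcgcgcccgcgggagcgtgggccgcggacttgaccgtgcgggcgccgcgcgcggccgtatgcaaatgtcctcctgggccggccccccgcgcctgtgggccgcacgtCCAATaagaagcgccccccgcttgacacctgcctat
Cyp26b1, chr6:84593909-84594060, minus strand: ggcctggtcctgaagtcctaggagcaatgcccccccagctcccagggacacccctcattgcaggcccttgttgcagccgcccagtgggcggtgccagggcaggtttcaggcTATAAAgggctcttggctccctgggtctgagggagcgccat
Cyp26a1 element, chr19:37697776-37697792, plus strand: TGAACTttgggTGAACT
Rarb element, chr14:16575513-16575529, minus strand: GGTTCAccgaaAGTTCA

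The promoters differ in composition. The Aldh1a2 stretch is 77.6% G and C with 40 CG pairs in 250 bases, and it holds 1 CCAAT and no TATAAA. The Cyp26b1 stretch is 65.1% G and C with 3 CG pairs in 152 bases, and it holds 1 TATAAA. Of 32851 RefSeq promoter windows of 250 bases, 12.4% held TATAAA and 33.8% CCAAT on either strand. Neither the Aldh1a2 nor the Cyp26b1 window held a half-site, which 38.6% of all windows did, and a pair of half-sites 5 bases apart in the same direction was found in 29 windows (0.0883%), those of Cyp26a1 and Rarb among them. A match or its absence describes these letters in this window only.

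Cyp26b1 encodes the hydroxylase that clears retinoic acid in many embryonic and adult tissues. In endothelial cells (Cyp26b1 ENSMUSG00000063415, GRCm38 chromosome 6, 84571414 to 84593908, minus strand) it had 42 UMIs in the tamoxifen library (33.3 CPM, 24.0 to 45.0) and 963 in the oil library (633 CPM, 593 to 674). It was thus 19.0-fold lower with tamoxifen (log2 ratio -4.25, -4.73 to -3.80), and the intervals of the levels are far apart. Among the 9246 genes with at least 20 UMIs in this gate, 3.28% were at least 2-fold lower and 2 had a lower ratio than Cyp26b1. The median over those genes was -0.03.

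**Figure D3:**
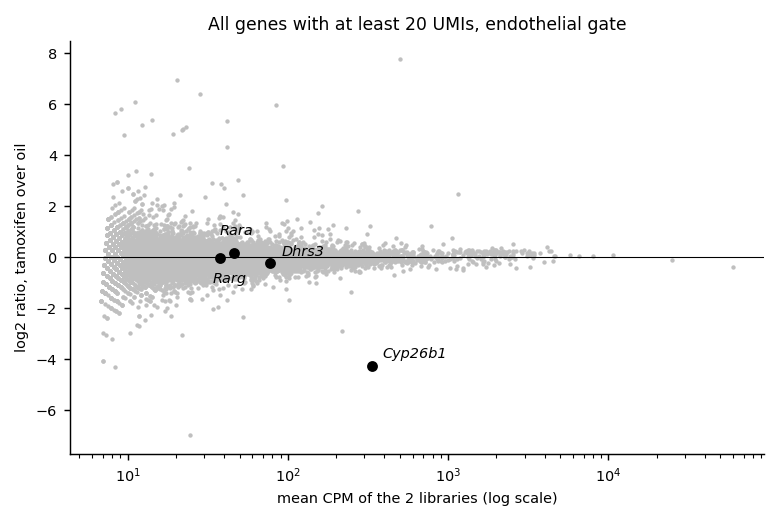
Each point is a gene with at least 20 UMIs in the endothelial gate, placed by its mean CPM over the 2 libraries (horizontal log axis) and its log2 ratio of tamoxifen over oil (vertical axis), with the measured members in black. Cyp26b1 lies at -4.25, apart from the genes of like level, while Rara, Rarg and Dhrs3 lie within the cloud around 0.

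The difference lay in the share of cells as well as in their content. Cyp26b1 was found in 22 of 257 tamoxifen cells (8.56%, Clopper-Pearson 5.44 to 12.7) and in 122 of 281 oil cells (43.4%, 37.5 to 49.4). Cells with at least 5 Cyp26b1 UMIs made up 0.389% of tamoxifen and 25.6% of oil endothelial cells. The highest cell held 11 UMIs with tamoxifen and 31 with oil, and the 3 highest cells held 35.7 and 8.52% of the UMIs, so the oil level did not rest on a few cells. The median depth was 3238 UMIs per tamoxifen cell and 4046 per oil cell. After the cells with at least 1500 UMIs were thinned to that depth, 5 of 168 tamoxifen cells (2.98%) and 86 of 204 oil cells (42.2%) still held a UMI. The other 89 tamoxifen and 77 oil cells were too shallow and were left out.

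Both sexes of cells showed the direction. A cell was called female by Xist without Y-linked UMIs and male by the reverse, and cells with neither pattern were left without a sex. Male endothelial cells had Cyp26b1 in 12 of 48 tamoxifen cells (25%) and 39 of 50 oil cells (78.0%), at 86.8 and 1227 CPM (log2 ratio -3.82, -4.42 to -3.27). Female endothelial cells had it in 6 of 66 tamoxifen cells (9.09%) and 17 of 82 oil cells (20.7%), at 15.2 and 86.5 CPM (-2.51, -3.77 to -1.45). Within each library the share was higher in male than in female cells, and the labels do not tell which animals gave them. Cells without a sex call held 5 UMIs in 143 tamoxifen cells and 529 UMIs in 149 oil cells.

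**Figure D4:**
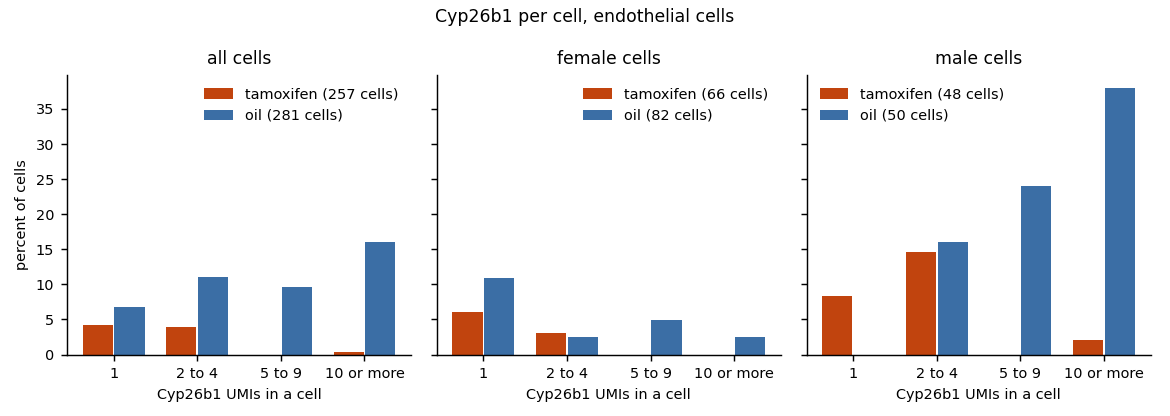
Percent of endothelial cells (vertical axis) by their number of Cyp26b1 UMIs (horizontal axis), for all cells, female cells and male cells, with tamoxifen bars left of oil bars. Cells with at least 5 UMIs are 0.389% of tamoxifen and 25.6% of oil endothelial cells, and cells with no UMI are not drawn.

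The 6 endothelial markers, which include Cdh5 and Cldn5 of the gate itself, summed to 4505 CPM with tamoxifen and 4973 CPM with oil. None was at 0, and markers of capillaries and veins summed to 2145 and 2090 CPM. Lymphatic markers summed to 851 and 942 CPM. Cells with Lyve1 held Cyp26b1 in 12 of 121 tamoxifen and 69 of 145 oil cells, cells with Mmrn1 in 2 of 6 and 2 of 4, and cells with Ccl21a in 1 of 4 and 0 of 1. Cells with Prox1, the defining lymphatic factor, held it in 0 of 3 and 0 of 1, cells with Reln likewise in 0 of 3 and 0 of 1, and cells with Pdpn in 0 of 3 and 0 of 5. Markers of other cells moved between the libraries in this gate. Epithelial markers summed to 1257 CPM in tamoxifen and 465 CPM in oil endothelial cells, C1q macrophage markers to 1560 and 699 CPM, alveolar macrophage markers to 697 and 444 CPM, and neutrophil markers to 128 and 4.60 CPM, and their part in the result was not tested. Among cells with the venous and large-vessel marker Vwf, 9 of 58 tamoxifen cells (15.5%) and 46 of 73 oil cells (63.0%) held Cyp26b1. Among cells with Plvap, which marks fenestrated and venous endothelium, 17 of 146 (11.6%) and 90 of 172 (52.3%) did. Cells with Gpihbp1, on the same list of capillary and vein markers, held it in 17 of 162 (10.5%) and 103 of 202 (51.0%). In the oil library, cells with Car4 held it in 34.3% against 46.3% without. Cells with Ednrb held it there in 22.9 against 46.3%, and cells with Aplnr in 44.2 against 43.3%. These shares do not place Cyp26b1 in 1 type of vessel. Cells without a UMI of Ptprc, the gene for CD45, gave 17 of 201 (8.46%) with tamoxifen and 106 of 235 (45.1%) with oil, as large a difference as in the whole gate.

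Most Cyp26b1 UMIs lay in the endothelial gate. Of all its UMIs in kept barcodes, 77.8% of 54 with tamoxifen and 89.0% of 1082 with oil lay there. Cells that passed no gate, the B cell gate aside, held 7 UMIs in 6 of 1265 tamoxifen cells (0.474%, 1.28 CPM). In the oil library such cells held 70 UMIs in 39 of 1240 cells (3.15%, 2.25 to 4.27, 14.3 CPM). That oil share was above the 0.847% of oil B cells given below, whose interval (0.103 to 3.03) overlaps it. What these cells are was not tested. The T cell gate had 9 tamoxifen and 259 oil UMIs (0.254 and 12.4 CPM, log2 ratio -5.61), but 235 of the oil UMIs came from 23 barcodes that passed the T cell and the endothelial gate together. In B cells, which should lack it, 2 of 433 tamoxifen cells (0.462%) and 2 of 236 oil cells (0.847%) had a UMI, at median depths of 6878 and 7744 UMIs. The Mgl2/Cd209a gate had 5 and 40 UMIs (-2.73) and C1q macrophages 4 and 26 (-2.88), shares of cells of 0.241 against 0.934% and 0.238 against 0.901%, near those of B cells and not read as expression. At least 2-fold lower values were found for 2.81% of genes in T cells, 1.56% in the Mgl2/Cd209a gate and 2% in C1q macrophages.

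Aldh1a2 encodes the enzyme that makes retinoic acid, and its highest level was in dendritic cells with Ccr7 and Fscn1, the pair that marks matured, migratory dendritic cells. In that gate (Aldh1a2 ENSMUSG00000013584, GRCm38 chromosome 9, 71215789 to 71296243, plus strand, overlapped by Gm48124) there were 372 UMIs with tamoxifen (152 CPM, 137 to 168) and 633 with oil (285 CPM, 263 to 308). The log2 ratio was -0.91 (-1.10 to -0.72), a 1.88-fold lower level that did not reach the limit of 2-fold. Of 8880 genes in the gate, 1.96% were at least 2-fold lower, 218 had a lower ratio than Aldh1a2, and the median was 0.10.

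Fewer tamoxifen than oil cells held a UMI. Aldh1a2 was found in 56 of 189 tamoxifen cells (29.6%, 23.2 to 36.7) and 88 of 169 oil cells (52.1%, 44.3 to 59.8), and after thinning to 1500 UMIs in 15 of 188 (7.98%) and 42 of 167 (25.1%). A single tamoxifen cell held 130 of the 372 UMIs, against at most 51 in an oil cell, and the 3 highest cells held 53.2 and 20.2% of the UMIs. Without the 3 highest cells of each library, 174 tamoxifen and 505 oil UMIs gave a log2 ratio of -1.68 (-1.94 to -1.43). That tamoxifen cell was male, and the sexes diverged with it: female cells gave 105 UMIs in 116 tamoxifen and 459 in 119 oil cells (-2.14), and male cells 169 UMIs in 40 tamoxifen and 75 in 29 oil cells (0.92). Without the highest male cell of each library, male cells gave 39 and 59 UMIs (-0.83, -1.45 to -0.22). By share of cells, both sexes were lower with tamoxifen, at 27.6 against 47.1% of female and 30.0 against 58.6% of male cells.

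**Figure D5:**
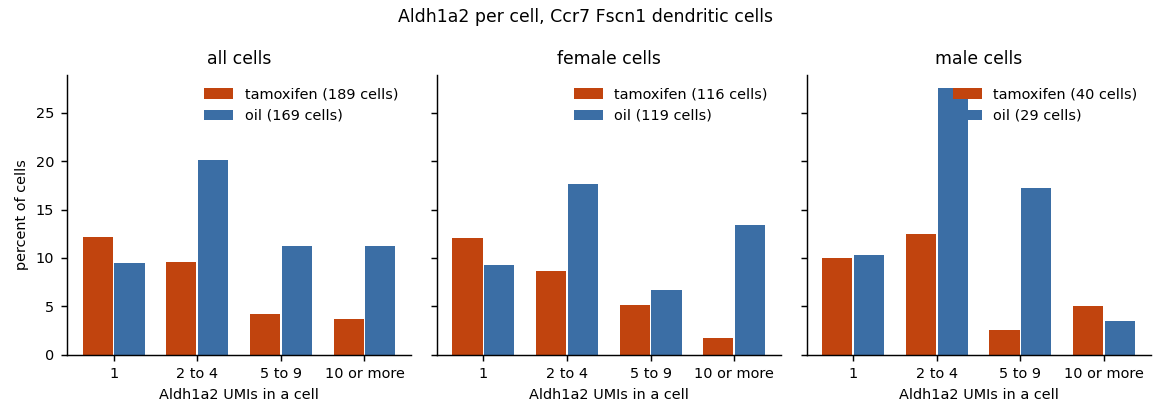
Percent of Ccr7 Fscn1 dendritic cells (vertical axis) by their number of Aldh1a2 UMIs (horizontal axis), for all cells, female cells and male cells, with tamoxifen bars left of oil bars. Cells with at least 5 UMIs are 7.94% of tamoxifen and 22.5% of oil cells, and the 1 tamoxifen cell with 130 UMIs falls in the last class of the male panel.

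Detection of Aldh1a2 varied with other genes of mature dendritic cells. Among cells with Socs2, 49 of 117 tamoxifen cells (41.9%) and 72 of 117 oil cells (61.5%) held it, and among cells without Socs2 7 of 72 (9.72%) and 16 of 52 (30.8%) did. Cells with Ccl22, which encodes a chemokine for regulatory T cells, held it in 48 of 137 (35.0%) and 82 of 131 (62.6%), and cells without Ccl22 in 8 of 52 (15.4%) and 6 of 38 (15.8%). The 8 markers of the gate, which include Ccr7 and Fscn1 that define it, summed to 7269 CPM with tamoxifen and 9273 CPM with oil, and none was at 0. Alveolar macrophage markers summed to 445 CPM with tamoxifen and 78.8 CPM with oil, C1q macrophage markers to 883 and 244 CPM, and neutrophil markers to 928 and 2.70 CPM. Of the tamoxifen cells 53.4% passed another gate, against 44.4% of the oil cells. The part of these markers in the result was not tested. In cells that passed no other gate Aldh1a2 was found in 31 of 88 (35.2%) with tamoxifen and 52 of 94 (55.3%) with oil, at 262 and 382 CPM (-0.54, -0.77 to -0.32).

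Aldh1a2 was far lower in the other gates than in Ccr7 Fscn1 dendritic cells. The Mgl2/Cd209a gate had it in 36 of 1659 tamoxifen cells (2.17%) and 181 of 2035 oil cells (8.89%), with 44 UMIs (2.28 CPM) and 357 UMIs (15.3 CPM), 6.71-fold lower with tamoxifen (-2.75, -3.23 to -2.29). It was lower in both sexes, with log2 ratios of -3.05 in female and -2.45 in male cells. Cells of the gate that also held Cd209a had it in 3 of 66 (4.55%) and 29 of 189 (15.3%), and cells of this gate alone in 9 of 216 (4.17%) and 75 of 452 (16.6%). In cDC1, 13 of 701 tamoxifen cells (1.85%) and 45 of 539 oil cells (8.35%) had it (-1.79, -2.36 to -1.24), against 1.41% of genes at least 2-fold lower there, but the female ratio was -2.41 and the male one 0.37. C1q macrophages had it in 1.74% of tamoxifen and 5.81% of oil cells, against 0.693 and 3.81% of B cells, which should lack it, with 33 and 116 UMIs (-2.0, -2.60 to -1.43), and those that passed no further gate but the Mgl2/Cd209a one still gave -2.05.

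In the remaining gates Aldh1a2 was found in shares of cells near or under those of B cells, or in few cells. B cells, which passed a gate on Cd79a and Ms4a1, had it in 3 of 433 tamoxifen cells (0.693%) and 9 of 236 oil cells (3.81%). Their 23 and 32 UMIs (5.78 and 12.2 CPM, -1.08, -1.92 to -0.26) lay to 100 and 78.1% in 3 cells. By CPM, cDC1 (3.65 and 12.6), C1q macrophages (2.45 and 9.76) and the Mgl2/Cd209a gate (2.28 and 15.3) did not exceed B cells beyond counting error. Cells of the Mgl2/Cd209a gate alone had 4.28 CPM with tamoxifen and 25.1 CPM with oil, where the upper limit of B cells was 17.3 CPM. Of these oil cells 16.6% held a UMI, against 3.81% of oil B cells. T cells had it in 28 of 5127 (0.546%) and 64 of 3019 (2.12%), with 76 and 214 UMIs (-2.25). T cells that passed no other gate held 11 and 4 UMIs, too few for a comparison. Alveolar macrophages had 48 and 26 UMIs (1.75 and 4.16 CPM, -1.25, against 5.85% of genes at least 2-fold lower), and thinned cells gave 0.20. Fibroblasts had 2 UMIs in 1 of 85 tamoxifen cells and 20 UMIs in 4 of 99 oil cells (-3.07, against 3.23% of genes), with 95% of the oil UMIs in 3 cells. Mesothelial markers, whose cells are known for Aldh1a2, summed to 32 UMIs in tamoxifen and 188 in oil fibroblasts, with 3 and 0 of 6 markers at 0. These sums were 33.5 and 165 CPM, against 235 and 197 CPM in alveolar macrophages, so the list is not specific to mesothelial cells here. Their part in the fibroblast counts was not tested. Endothelial cells had none in 257 tamoxifen cells, which allows a share of cells with a UMI of up to 1.17% by the floor of 3 counts, at a median depth of 3238 UMIs, and 2 UMIs in 281 oil cells.

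Dhrs3, which encodes the enzyme that reduces retinal back to retinol, was highest in macrophages (ENSMUSG00000066026, chromosome 4, 144892827 to 144928209, plus strand). Alveolar macrophages had it in 80.7% of 2507 tamoxifen and 73.3% of 476 oil cells, at 231 CPM (226 to 237) and 177 CPM (167 to 188), a log2 ratio of 0.38 (0.29 to 0.48). Cells that passed only that gate had 272 and 277 CPM (-0.02, -0.14 to 0.09), and 36.3% of tamoxifen against 47.9% of oil alveolar macrophages had passed another gate. The median of all genes in this gate was 0.12. Female cells gave 0.48 and male cells -0.12. C1q macrophages followed with 159 and 138 CPM (0.21), then the Mgl2/Cd209a gate with 101 and 87.9 CPM (0.20) and T cells with 102 and 74.8 CPM (0.44). The T cell difference was 0.74 in female and -0.09 in male cells. In the T cell gate alveolar macrophage markers summed to 1883 CPM with tamoxifen and 518 CPM with oil, and neutrophil markers to 3147 and 372 CPM. C1q macrophage markers went the other way there, with 1319 and 1793 CPM. The part of these cells in the T cell values was not tested. Ccr7 Fscn1 dendritic cells (76.7 and 84.6 CPM), endothelial cells (71.4 and 84.1 CPM) and fibroblasts (62.8 and 69.3 CPM) had overlapping intervals between libraries and among each other, and cDC1 were lowest with 46.4 and 29.4 CPM (0.66, 0.44 to 0.88). Those cDC1 that passed no further gate but the Mgl2/Cd209a one had 24.9 and 24.0 CPM (0.05, -0.33 to 0.44). Alveolar macrophage markers summed to 1126 CPM with tamoxifen and 209 CPM with oil in the whole cDC1 gate. The order of alveolar over C1q macrophages over the other gates exceeded counting error in both libraries.

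Within Ccr7 Fscn1 dendritic cells, Aldh1a2 was found more often in cells that also held Dhrs3. With tamoxifen 37 of 94 cells with Dhrs3 (39.4%) and 19 of 95 without (20%) held Aldh1a2, and with oil 57 of 87 (65.5%) and 31 of 82 (37.8%) did. Deeper cells hold more of both genes, so these shares describe detection.

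Rara encodes the receptor that most blood cells use for retinoic acid (ENSMUSG00000037992, chromosome 11, 98927818 to 98974942, plus strand, overlapped by Gm22061). It was present in every gate and highest in alveolar macrophages, with 90.5 CPM (86.9 to 94.1) in tamoxifen and 79.5 CPM (72.7 to 86.9) in oil cells (0.19, 0.05 to 0.33). Cells that passed only that gate gave -0.11. Endothelial cells (49.2 and 43.4 CPM), T cells (49.9 and 40.3 CPM) and cDC1 (46.9 and 36.1 CPM) came next and could not be ordered beyond counting error in both libraries. The Mgl2/Cd209a gate had 39.6 and 31.3 CPM, fibroblasts 33.5 and 21.9 CPM and C1q macrophages 26.9 and 27.4 CPM. Ccr7 Fscn1 dendritic cells had the lowest values, with 20.8 CPM (15.5 to 27.4) in tamoxifen and 11.7 CPM (7.64 to 17.1) in oil cells. These intervals overlap those of fibroblasts in both libraries and of C1q macrophages with tamoxifen. The log2 ratio of 0.83 (0.12 to 1.57) was the largest difference for Rara among its 8 gates. It came from 51 and 26 UMIs, in a gate where 5.97% of genes were at least 2-fold higher.

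Rarg encodes the receptor best known from skin and skeleton (ENSMUSG00000001288, chromosome 15, 102234938 to 102257517, minus strand). Its highest levels were in endothelial cells (37.3 and 38.1 CPM, -0.03, -0.62 to 0.55) and fibroblasts (32.5 and 39.5 CPM, -0.28), which did not differ beyond counting error, followed by T cells with 27.0 and 25.5 CPM (0.08). It was lower in alveolar macrophages (12.4 and 7.84 CPM, 0.66, 0.23 to 1.12) and in cDC1 (5.66 and 6.88 CPM, -0.28). In the Mgl2/Cd209a gate it had 11.8 and 16 CPM (-0.43, -0.68 to -0.19), which was 0.02 in female and -1.51 in male cells. Male endothelial cells gave -1.52 (-2.82 to -0.36) from 9 tamoxifen and 23 oil UMIs, and female ones 0.28 (-0.76 to 1.30). Over the whole endothelial gate, which differed in Cyp26b1, both receptors lay within counting error of each other in the 2 libraries. For Rarg this did not hold in male cells.

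Rdh10, which encodes the dehydrogenase that starts retinoic acid synthesis from retinol, was low in every gate (ENSMUSG00000025921, chromosome 1, 16105774 to 16133734, plus strand). All kept barcodes together held 234 tamoxifen and 179 oil UMIs, 2.93 and 3.37 CPM. Its 5 gates with at least 20 UMIs ran from C1q macrophages (3.93 and 4.97 CPM, -0.34, -0.90 to 0.22) down to alveolar macrophages (3.32 and 1.92 CPM, 0.79, -0.09 to 1.79), and neighbours in this order overlapped. Fibroblasts had 7 tamoxifen UMIs (7.33 CPM, 2.95 to 15.1) and 5 oil UMIs (4.39 CPM, 1.42 to 10.2), too few for a place in this order. Ccr7 Fscn1 dendritic cells had 5 and 3 UMIs. Endothelial cells had 2 UMIs in 1 tamoxifen cell (1.59 CPM) and 9 UMIs in 9 oil cells (5.91 CPM).

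Few cells held 3 or more of the members. At least 3 of the 6 were found in 10.6% of tamoxifen and 10.7% of oil Ccr7 Fscn1 dendritic cells, in 8.82 and 7.98% of alveolar macrophages, and in 3.89 and 8.90% of endothelial cells. No member was found in 59.1% of tamoxifen and 33.5% of oil endothelial cells. Over 16 profiles (8 gates in each library, which share libraries and cells), the genes whose log2(CPM + 1) ran most like Aldh1a2 among 14295 were Pik3r1 (Pearson r 0.94), M1ap (0.93) and Gm10851 (0.93), and those most like Cyp26b1 were Nxpe4 (0.96), Gm38910 (0.95) and Ccdc85c (0.94). The closest to Dhrs3 were Camkk2 (0.94), Abhd12 (0.92) and Neu1 (0.91), to Rara Hnrnpu (0.95), Plk3 (0.94) and Slc12a7 (0.92), to Rarg Zfp579 (0.95), Igf1r (0.94) and Ercc1 (0.94), and to Rdh10 Extl3 (0.89), Gm26899 (0.88) and Sgsh (0.83). These values describe likeness only.

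The rest of the retinoid pathway was read from 5 lists with 59 other genes, all of them measured. In endothelial cells 0 of 27 with at least 20 UMIs were at least 2-fold higher and 2 lower, against 3.27 and 3.28% of all genes in the gate. In Ccr7 Fscn1 dendritic cells 1 of 23 was higher and 2 lower (5.97 and 1.96% of all genes), and in alveolar macrophages 2 of 40 were higher and 13 lower (4.01 and 5.85%). In C1q macrophages 1 of 38 was higher and 5 lower (3.37 and 2%), and in cDC1 2 of 36 were higher and 5 lower (4.38 and 1.41%). In the Mgl2/Cd209a gate 1 of 41 was higher and 3 lower (2.5 and 1.56%), in T cells 3 of 42 and 6 (4.39 and 2.81%), and in fibroblasts 2 of 27 and 1 (3.61 and 3.23%). The median over the 5 lists together ran from -0.17 to 0.03 by gate, beside medians of -0.03 to 0.12 over all genes. Single lists ran from -1.51 (breakdown, 1 gene in alveolar macrophages) and -1.13 (inducible, 9 genes there) to 0.22 (receptors, 10 genes in endothelial cells).

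Of the storage and transport genes, Lrat, which encodes the enzyme that esterifies retinol for storage, was lower with tamoxifen in the 6 gates with at least 20 of its UMIs, by at least 2-fold in 5. Fibroblasts held 61 Lrat UMIs with tamoxifen (63.9 CPM) in 27 of 85 cells and 175 with oil (154 CPM) in 40 of 99 cells, a log2 ratio of -1.26 (-1.71 to -0.84), which was -0.64 in female and -2.26 in male cells. In the Mgl2/Cd209a gate Lrat had 21 and 119 UMIs (-2.23), with 82 of the oil UMIs in male cells. Crabp2, which encodes a carrier of retinoic acid to the nucleus, ran the other way in T cells, with 274 UMIs in 42 tamoxifen cells (7.74 CPM) and 23 UMIs in 6 oil cells (1.10 CPM), 7.03-fold higher (2.81, 2.20 to 3.50). Of the tamoxifen UMIs 252 came from female cells, and of the oil UMIs 23. Crabp2 in Ccr7 Fscn1 dendritic cells was 20 UMIs of 1 tamoxifen cell and none in oil, at least 6.04-fold higher against a floor of 3 counts. Crabp1, another binding protein, had at least 75.0% of its UMIs in 3 cells per library in fibroblasts, with 16 UMIs with tamoxifen and 7 with oil (1.45). It was also higher in cDC1 (55 and 21 UMIs, 1.11), the Mgl2/Cd209a gate (39 and 15, 1.65) and T cells (24 and 5, 1.5), with at least 81.8% of the tamoxifen UMIs in 3 cells each. Alveolar macrophages had 37 Crabp1 UMIs in 5 cells and 26 Crabp2 UMIs in 9 cells with tamoxifen and none of either with oil, at least 2.81-fold and 1.97-fold higher against the floor, and both are in the count of 2 above, in which 0.5 UMIs stand for 0. Fabp5, which encodes a carrier of fatty acids and retinoic acid, was higher in C1q macrophages (381 and 179 CPM, 1.09) and fibroblasts (101 and 42.1 CPM, 1.26). In these gates alveolar macrophage markers summed to 575 and 194 CPM in C1q macrophages and 842 and 206 CPM in fibroblasts. Epithelial markers summed to 76.5 and 102 CPM in C1q macrophages and 3301 and 145 CPM in fibroblasts. C1q macrophage markers in fibroblasts gave 3483 and 4076 CPM. The part of such cells in the values of both gates was not tested.

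Among the receptors, Rarb, itself induced by retinoic acid through the element printed above, was at least 2-fold lower in 5 of its 6 gates. Ccr7 Fscn1 dendritic cells had 8 Rarb UMIs with tamoxifen and 21 with oil (-1.53, -2.92 to -0.30), cDC1 27 and 58 (-1.38), the Mgl2/Cd209a gate 47 and 127 (-1.16), alveolar macrophages 30 and 26 (-1.93) and T cells 20 and 37 (-1.65). C1q macrophages had 26 and 31 (-0.44). These gates share cells, so they are not independent readings. Rxra, the common partner of the Rar proteins, was 80.9 CPM in tamoxifen and 46.3 CPM in oil alveolar macrophages (0.81) and did not reach 2-fold in any gate. Rai1 was the other receptor-list gene that was lower in Ccr7 Fscn1 dendritic cells (20 and 37 UMIs, -1.03).

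The inducible genes did not all run one way. In alveolar macrophages 6 of 9 measured were at least 2-fold lower, where 5.85% of all genes were, among them Asb2 with 42 and 47 UMIs (-2.30), Hic1 with 11 and 18 (-2.84) and the integrin gene Itgb7 with 1195 and 660 (43.6 and 106 CPM, -1.28), in a gate with a larger share of cells of other gates in the oil library, as given above. Ccr9 (-1.02), Rarres2 (-1.13) and Rarb were the others. Asb2 was lower in T cells too (6.16 and 17.6 CPM, -1.52, -1.76 to -1.27), with -1.92 in female and -1.11 in male cells, as was Rarres2 (9.78 and 25.4 CPM, -1.38), which gave -0.47 in female and -2.47 in male cells. Tgm2, which encodes transglutaminase 2, was higher in cDC1, with 18.7 and 6.06 CPM (1.63, 1.18 to 2.10). Cyp26a1 and Cyp26c1, the other retinoic acid hydroxylase genes, had 2 and 0 UMIs in all kept tamoxifen barcodes and 8 and 1 in oil.

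The other synthetic enzymes were expressed in other places. Aldh1a1 was highest in fibroblasts, with 601 UMIs with tamoxifen (629 CPM) and 650 with oil (570 CPM, log2 ratio 0.14, -0.02 to 0.30), and lay within 2-fold in all its gates but alveolar macrophages (6.31 and 13.8 CPM, -1.13), where 3 oil cells held 73.3% of its UMIs. Aldh1a3 was lower in cDC1 (24 and 61 UMIs, -1.63), where 3 cells held 91.7% of the tamoxifen and 62.3% of the oil UMIs, and in T cells (39 and 47 UMIs, -1.03). Dhrs9, a retinol dehydrogenase gene, was lower in alveolar macrophages (4.30 and 19.7 CPM, -2.19, -2.57 to -1.82), with -2.97 in female and -0.86 in male cells, and lay within 2-fold in cDC1 (34.6 and 43.0 CPM), where it was highest. The remaining genes at least 2-fold lower were Adh1, Bco2, Cyp2s1, Rdh12 and Rbp4, all in gates with fewer than 100 UMIs per library, and Cebpe was higher in T cells (34 and 9 UMIs, 1.16).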

How the data were processed

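Single-cell RNA counts were analysed in 2 libraries, 1 per group. The authors deposited raw UMI counts per gene and barcode, made with Cell Ranger 5.0.1 on GRCm38 (mm10), per the submitters' processing notes; the gene annotation was not named there. Barcodes with at least 300 genes and under 10% mitochondrial UMIs were kept, and no doublets were removed. As an alternative, the highest Scrublet scores were removed at 0.8% per 1000 barcodes, which marked 822 tamoxifen and 369 oil barcodes. "Ccr7 with Fscn1" was read as 1 UMI of each and "Cd3" as Cd3d, Cd3e and Cd3g summed, and a barcode may pass several gates.

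UMIs were summed per gate and divided by its UMI total. Levels carry exact Poisson intervals, ratios an exact conditional binomial interval and shares Clopper-Pearson intervals, all at 95%, and a count of 0 was set against 3 counts. UMIs are molecules, but those of 1 cell are not independent of each other, so intervals are too narrow for animals. Cells with at least 1500 UMIs were thinned to 1500 UMIs with a fixed seed, and shallower cells were left out of the thinned values. A 2-fold difference with at least 20 UMIs was a call, read beside the share of all genes past it.

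Named genes are the members, list genes past 2-fold in a gate, and the 3 genes most like each member. Fabp5, Rxra, Aldh1a1, Dhrs9 and Tgm2 also have values in gates where they did not reach 2-fold, and Cyp26a1 and Cyp26c1 are named as relatives of Cyp26b1, chosen after their values were seen. Members and lists were chosen with earlier results of these data known. The ratio step was tested on simulated data. Python 3.11.15, NumPy 2.4.6, SciPy 1.17.1, pandas 2.3.3, scanpy 1.11.5 and matplotlib 3.10.9 were used. Gene positions came from GENCODE M21 and promoters from RefSeq, both on GRCm38.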

Additional observations from a re-analysis of the deposited data

Results flagged for a closer look

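Aldh1a2 in Ccr7 Fscn1 dendritic cells gave log2 ratios of tamoxifen over oil of -2.14 in female cells and 0.92 in male cells, with counting intervals on opposite sides of 0. The difference between the sexes was not tested, and the male value was -0.83 without the male cell with the most UMIs in each library.

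Rara in alveolar macrophages gave 0.34 in 2002 tamoxifen and 289 oil female cells and -0.39 in 212 tamoxifen and 111 oil male cells, again on opposite sides of 0 and not tested.

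Rarg gave -0.43 in the Mgl2/Cd209a gate and 0.66 in alveolar macrophages, intervals on opposite sides of 0. The difference between the gates was not tested.

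In the barcodes that failed the filters, Rara had 120 UMIs in 2842 tamoxifen barcodes and 101 in 3548 oil barcodes, 31.0 and 22.2 CPM (log2 ratio 0.48, 0.09 to 0.88). The comparisons do not use these barcodes.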

How the results depend on the processing

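No paired analysis was possible because each group has 1 library. Limits are few cells and UMIs in the endothelial, fibroblast and dendritic gates, overlap between gates, and the unknown number of animals.

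Cyp26b1 in endothelial cells stayed at least 2-fold lower in all 12 settings tried, and moved beyond its interval to -4.75 without the 3 cells with the most UMIs, -5.05 after thinning and -2.51 in female cells; it was -4.11 in cells without Ptprc and -4.29 in cells with Plvap, settings chosen after seeing the data. Aldh1a2 in Ccr7 Fscn1 dendritic cells moved to -0.54 in cells of exactly 1 gate, -1.68 without the 3 top cells, -1.33 after thinning, -2.14 in female cells and 0.92 in male cells; without the top cell of that sex in each library, a setting chosen after seeing the data, female cells gave -2.12 and male cells -0.83.

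In cells of exactly 1 gate, Rara in alveolar macrophages gave -0.11, Dhrs3 there -0.023 and Rdh10 in C1q macrophages -1.37. By sex, Rara gave 0.34 in female and -0.39 in male cells, Dhrs3 0.48 and -0.12, male Rarg in endothelial cells -1.52 and male Rdh10 in C1q macrophages 0.37. Dhrs3 gave 0.28 with gate thresholds doubled, 0.27 with median-of-ratios scaling and 0.19 after thinning, and Rarg 0.92 after thinning. The endothelial gate ranked 2 for Rarg in the oil library and in cells of exactly 1 gate, and the C1q gate 3 for Rdh10 in the tamoxifen library.

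Over other gates, 338 settings left 268 values within their intervals, moved 65, and turned the sign of 5 that had been at least 2-fold, all of Aldh1a2: 0.37 in male cDC1 (24 tamoxifen and 11 oil UMIs), 0.20 in thinned alveolar macrophages (6 and 1), 0.77 in T cells of exactly 1 gate (11 and 4), and 0.46 in fibroblasts of exactly 1 gate and 0.25 when thinned (2 and 2 each). All but the cDC1 value rest on fewer than 20 UMIs, and all 5 intervals hold 0. Sign changes of values under 2-fold are among those that moved or stayed.

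The share of genes past 2-fold was 16.3% without and 4.04% with a minimum of 50 UMIs in Ccr7 Fscn1 dendritic cells, 10.2 and 2.39% in the Mgl2/Cd209a gate, 15.3 and 2.90% in endothelial cells, and 17.1% without a minimum in alveolar macrophages. Other retinoid genes past it numbered 8 and 1 in Ccr7 Fscn1 dendritic cells, 7 and 0 in endothelial cells, and 9 with the minimum of 50 in alveolar macrophages.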
